A study of Mus musculus with 57 samples.

Results

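Hoxc4, Hoxc6 and Hoxc8 belong to the HoxC cluster, a row of homeobox genes on mouse chromosome 15 that encode transcription factors. These 3 genes were taken up because an earlier look at these data had shown higher Hoxc signals in NHD13 mice, so they were chosen by their log2 signals in NHD13 against CA10 and wild-type tissue, and those contrasts are given as a description with no test. Every probe set of the array that names only 1 of the 3 genes was used, which gave 3 of 18165 genes and 5 of the 44943 probe sets: 1422870_at for Hoxc4, 1427362_x_at, 1427361_at and 1427454_at for Hoxc6, and 1452412_at for Hoxc8. Where a gene had several, the main probe set is the brightest on average, 1427362_x_at for Hoxc6.

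RNA of blood-forming tissue from mice of 3 genotypes was measured on 57 Affymetrix arrays, each giving a log2 signal per probe set. NHD13 mice carry a NUP98-HOXD13 fusion and CA10 mice a CALM-AF10 fusion, both under vav control, which drives a transgene in blood cells, and wild-type mice carry neither. NHD13 mice gave 6 spleens with leukemia and, from clinically healthy animals, 3 lineage-negative marrows (marrow depleted of mature blood cells), 3 whole marrows and 3 thymuses. CA10 mice gave 6 spleens with leukemia and, from clinically healthy animals, 5 spleens, 3 lineage-negative marrows, 3 whole marrows and 4 thymuses. Wild-type mice gave 2 spleens, 3 lineage-negative marrows, 6 whole marrows, 3 further whole marrows labelled C57B6 and 7 thymuses. The mice were untreated and the controls were age-matched, littermates where possible; their ages are not in the labels used here. No healthy NHD13 spleen was among the samples, so fusion and leukemia cannot be told apart in NHD13 spleen. Whether different arrays came from different mice is not stated, so the tests rest on array-to-array spread, which may be technical.

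Hox genes lie in 4 clusters, and within a cluster the genes are arranged along the chromosome in the order in which they are switched on along the body axis of the embryo. In blood formation, genes of the HoxA and HoxB clusters are the best known: they are active in stem and progenitor cells and are shut off as cells mature. HOX proteins bind DNA together with PBX and MEIS cofactors. Fusions of NUP98 to a HOX protein and fusions that join CALM to AF10 both raise Hox gene expression in leukemia.

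The arrays differed in quality in ways that touch the Hoxc values. On 10 arrays the signals were spread over a narrower range, with a 75th percentile between 6.90 and 7.15 against 7.26 to 7.72 on the other 47. The narrow set held wild-type thymus 6, the third lineage-negative array of each genotype, all CA10 whole marrows and marrows 4 to 6 of the wild type. The Gapdh control signal at the 3′ end exceeded that at the 5′ end by 2.95 in the third NHD13 lineage-negative marrow, a sign of degraded RNA. It did so by 2.09 in the first healthy CA10 spleen and 1.36 in the second C57B6 marrow, and by at most 0.85 elsewhere. The median over all arrays was 0.17. Wild-type thymus 2 and CA10 thymuses 1 and 3 were left out in an alternative chosen after seeing the data, and no measure of array quality is given for that choice. Hoxd13, the gene at the 3′ side of the NHD13 fusion, had 2 probe sets that did not separate the 15 NHD13 arrays (4.65 to 5.56 and 3.93 to 5.87) from the 42 others (4.42 to 5.84 and 3.67 to 5.31), so they did not check the genotype labels.

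Hoxc4, the gene at the end of the cluster that is switched on first in the embryo, had the largest differences of the 3 members in every NHD13 tissue, by main probe sets. In NHD13 leukemic spleen its log2 signal was 8.12, 8.86, 9.79, 8.34, 6.57 and 8.56 on the 6 arrays, with a mean of 8.37. The 2 wild-type spleens were at 5.20 and 4.97, the 6 CA10 leukemic spleens lay between 4.63 and 5.42, and the 5 healthy CA10 spleens between 4.23 and 5.20. Every NHD13 leukemia was above every other spleen, and the fifth was the lowest of the 6.

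The mean difference in Hoxc4 was 3.29 ± 0.51 (model standard error) on the log2 scale against wild-type spleen, a 9.79-fold difference in signal. Against CA10 leukemic spleen it was 3.49 ± 0.36 and against healthy CA10 spleen 3.47 ± 0.38. Across all 28025 probe sets tested, 22.1% had all NHD13 leukemias above all wild-type spleens, 6.31% above all CA10 leukemic spleens and 8.92% above all healthy CA10 spleens.

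In clinically healthy NHD13 thymus Hoxc4 was at 7.93, 7.81 and 9.12. The 7 wild-type thymuses ranged from 4.57 to 5.95 with a median of 4.98, and the 4 CA10 thymuses were at 4.98, 4.82, 6.37 and 4.38. The NHD13 thymuses lay above all others. The highest of the others, CA10 thymus 3 and wild-type thymus 2, were among the 3 left out in the alternative named above. The difference was 3.16 ± 0.43 against wild type and 3.15 ± 0.47 against CA10. With those 3 thymuses left out, a setting chosen after seeing the data, it was 3.30 and 3.68. Of all probe sets tested, 3.65% had every NHD13 thymus above every wild-type thymus and 5.57% above every CA10 thymus.

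In whole marrow Hoxc4 was at 6.15, 6.98 and 7.74 in NHD13 mice. The 6 wild-type marrows ranged from 4.58 to 5.48 with a median of 4.83, the C57B6 marrows were at 5.03, 5.31 and 4.96, and the CA10 marrows at 5.14, 5.09 and 5.12. Again no NHD13 array overlapped with another genotype. The difference was 2.06 ± 0.26 against wild type and 1.84 ± 0.30 against CA10. Here 3.95% of all probe sets tested had every NHD13 marrow above every wild-type marrow, and 36.3% had them above every CA10 marrow, whose arrays were all in the narrow set, so that array set and genotype cannot be told apart.

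In lineage-negative marrow Hoxc4 was at 5.95, 6.88 and 7.26 in NHD13 mice, at 4.62, 5.06 and 5.40 in wild-type mice and at 5.14, 4.55 and 5.31 in CA10 mice. The NHD13 arrays were the highest here too, by a mean of 1.67 ± 0.39 over wild type and 1.70 ± 0.39 over CA10. The corresponding share of all probe sets tested was 2.9% for wild type and 2.58% for CA10. Without the third arrays, which are those of the narrow set, the differences were 1.58 and 1.57.

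**Figure D1:**
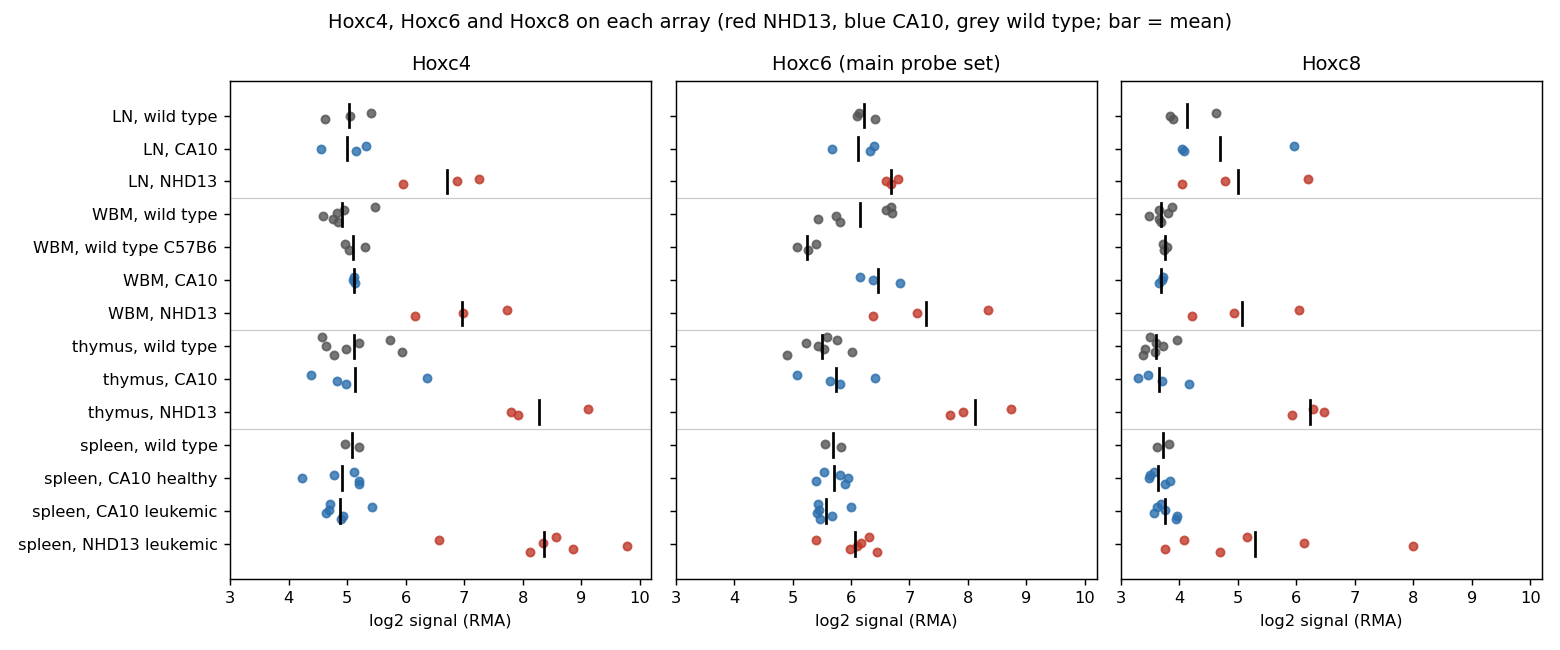
Log2 signal of Hoxc4, Hoxc6 (main probe set) and Hoxc8 on each of the 57 arrays, by tissue and genotype (LN, lineage-negative marrow; WBM, whole marrow); each point is 1 array and the black bar is the group mean. Hoxc4 in the 4 NHD13 groups (red) has means between 6.70 and 8.37, and in the other 10 groups between 4.88 and 5.14.

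Over all tissues, the means of Hoxc4 ran from 8.37 in NHD13 leukemic spleen, 8.28 in NHD13 thymus, 6.96 in NHD13 whole marrow and 6.70 in NHD13 lineage-negative marrow down to 5.14 in CA10 thymus, the highest of the remaining 10 groups, and 4.88 in CA10 leukemic spleen, the lowest. Neighbours in this order overlapped, apart from NHD13 thymus and NHD13 whole marrow, whose arrays met no closer than 7.81 and 7.74. Of the 15 NHD13 arrays, 13 were above all 42 others. The exceptions were the first lineage-negative and the first whole marrow, which CA10 thymus 3, at 6.37, exceeded. A single probe set of the 28025 tested, or 0.00357%, had all 15 NHD13 arrays above all others: 1421193_a_at of Pbx3, which encodes a HOX cofactor and ranged from 7.13 to 10.26 on NHD13 arrays and from 5.42 to 7.04 on the others.

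The Hoxc4 promoter is shown because this gene separated the genotypes most clearly, and it is the only Hoxc promoter in the RefSeq table used here. It comprises 300 bases of RefSeq sequence around the annotated start, nearly all of them before it, at chr15:103034145-103034444 on the + strand of GRCm38.p6, with the match to the SP1-type motif GGGCGG in capitals.
Hoxc4 promoter: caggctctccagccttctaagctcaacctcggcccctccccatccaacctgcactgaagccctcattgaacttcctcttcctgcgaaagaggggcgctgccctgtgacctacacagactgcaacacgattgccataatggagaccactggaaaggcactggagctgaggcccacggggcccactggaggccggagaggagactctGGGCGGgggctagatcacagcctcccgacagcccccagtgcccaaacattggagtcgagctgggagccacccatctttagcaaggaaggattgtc
Its GC content was 60.3%, and it held 9 CpG dinucleotides; 53.9% of the promoters in the table held fewer. On both strands, GGGCGG was found 1 time, and 35.9% of the 32544 promoters held at least 1 match. The PBX-HOX motif TGATNNAT, the MEIS motif TGACAG and the homeodomain motif TAATTA had 0 matches in this window; 8.79%, 19.1% and 5.29% of the promoters held them. The probe sets measure transcripts and do not say from which start site they came.

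Hoxc8, the member nearest the middle of the cluster, was high in NHD13 thymus and uneven elsewhere. In thymus it was at 5.93, 6.48 and 6.29 in NHD13 mice, from 3.38 to 3.96 with a median of 3.58 in the 7 wild-type mice, and at 4.17, 3.70, 3.30 and 3.47 in CA10 mice. All NHD13 thymuses were above all others, an order that 3.65% of all probe sets tested showed against wild type and 5.57% against CA10. The difference was 2.64 ± 0.21 against wild type, which is 6.23-fold, and 2.57 ± 0.23 against CA10.

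In NHD13 leukemic spleen Hoxc8 spanned a wide range, at 4.69, 3.75, 7.99, 6.14, 4.08 and 5.16. Wild-type spleens were at 3.61 and 3.82, CA10 leukemic spleens between 3.57 and 3.96, and healthy CA10 spleens between 3.48 and 3.85. Thus 5 of the 6 NHD13 leukemias were above all spleens of the other genotypes, and the second leukemia lay within their range. The mean difference was 1.58 ± 0.69 against wild type, 1.55 ± 0.49 against CA10 leukemic and 1.67 ± 0.51 against healthy CA10 spleen; without the third leukemia the differences from wild type and CA10 leukemic spleen were 1.05 and 1.01.

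In whole marrow Hoxc8 was at 4.22, 4.93 and 6.04 in NHD13 mice, against 3.48 to 3.87 in wild-type, 3.72 to 3.78 in C57B6 and 3.65 to 3.72 in CA10 marrow. The groups did not overlap, with a difference of 1.37 ± 0.26 against wild type and 1.37 ± 0.30 against CA10, each 0.89 without the third NHD13 marrow. Of all probe sets tested, 3.95% had every NHD13 marrow above every wild-type marrow and 36.3% above every CA10 marrow. All CA10 marrows were of the narrow set, so array set and genotype cannot be told apart there. In lineage-negative marrow Hoxc8 was at 4.04, 4.78 and 6.19 in NHD13, 3.90, 3.83 and 4.63 in wild-type and 4.08, 4.05 and 5.95 in CA10 mice. The third array, of the narrow set, was the highest in each genotype, and the groups overlapped. The difference there was 0.88 ± 0.64 against wild type and 0.31 ± 0.64 against CA10, and it rested on single arrays. Against wild type it was 0.29 without the third NHD13 array and 1.37 without the first. Against CA10 it was −0.29 without the third NHD13 array, 0.79 without the first, and 0.00, −0.01 and 0.94 without the first, the second and the third CA10 array.

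Hoxc8 exceeded the 40th percentile of all signals on only 9 arrays, of which 8 were NHD13 arrays and 1 was the third CA10 lineage-negative marrow. It therefore passed the filter on low signals largely through NHD13 tissue. In the other groups its means lay between 3.59 and 3.76, apart from lineage-negative marrow, where they were 4.12 in wild-type and 4.69 in CA10 mice, and such low signals have little room to differ.

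Hoxc6, which lies between Hoxc8 and Hoxc5, was high in NHD13 thymus and differed less in the other NHD13 tissues. By its main probe set NHD13 thymus was at 7.70, 7.91 and 8.74, wild-type thymus between 4.91 and 6.02 with a median of 5.53, and CA10 thymus at 5.82, 5.64, 6.40 and 5.08. The NHD13 thymuses were above all others, as they were in 3.65% of all probe sets tested against wild type and 5.57% against CA10. The difference was 2.62 ± 0.30 against wild type, which is 6.14-fold, and 2.38 ± 0.33 against CA10.

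In whole marrow the main Hoxc6 probe set was at 6.38, 7.13 and 8.34 in NHD13 mice and at 6.84, 6.37 and 6.15 in CA10 mice. Wild-type marrows 1 to 3 were at 5.80, 5.44 and 5.74 and wild-type marrows 4 to 6, of the narrow set, at 6.70, 6.60 and 6.68. The first NHD13 marrow therefore lay within the wild-type range, and wild-type marrows 4 to 6 were higher than marrows 1 to 3 by 1.00 (6.66 against 5.66), where array set and other differences between these samples cannot be told apart. The difference from all 6 wild-type marrows was 1.12 ± 0.37, and from CA10 0.83 ± 0.42. Without the third NHD13 marrow these were 0.59 and 0.30, and without the first the difference from CA10 was 1.28. In C57B6 marrow Hoxc6 was at 5.26, 5.07 and 5.40, below every other whole marrow.

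In lineage-negative marrow the NHD13 arrays were at 6.68, 6.59 and 6.80, above the wild-type arrays at 6.41, 6.11 and 6.14 and the CA10 arrays at 6.32, 5.68 and 6.39. The gap was small, 0.47 ± 0.26 against wild type and 0.56 ± 0.26 against CA10, or 0.34 without the second CA10 array. Of all probe sets tested, 2.9% had every NHD13 array above every wild-type array here and 2.58% above every CA10 array. In NHD13 leukemic spleen Hoxc6 was at 6.45, 5.98, 6.11, 6.18, 5.41 and 6.31, and the 2 wild-type spleens were at 5.83 and 5.55. These groups overlapped, since the fifth leukemia was below both wild-type spleens, and the difference was 0.38 ± 0.23, or 0.24 without the second wild-type spleen. CA10 leukemic spleens ranged from 5.42 to 6.01 and healthy CA10 spleens from 5.40 to 5.94, which gave differences of 0.49 ± 0.16 and 0.35 ± 0.17.

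The 3 Hoxc6 probe sets parted in thymus and whole marrow. 1427361_at followed the main probe set, with a correlation of 0.978 over the 14 group means, and differed between NHD13 and wild type by 2.29 ± 0.39 in thymus, 0.92 ± 0.32 in whole marrow, 0.72 ± 0.25 in lineage-negative marrow and 0.19 ± 0.23 in leukemic spleen. 1427454_at differed by 0.24 ± 0.16, 0.14 ± 0.15, 0.60 ± 0.44 and 0.23 ± 0.17 in the same tissues, and its correlation with the main probe set was 0.327. In lineage-negative marrow and leukemic spleen its differences lay between those of the first pair.

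The rank of the tissues differed between members. Among NHD13 tissues, Hoxc4 had its highest mean in leukemic spleen (8.37), while the main Hoxc6 probe set had its highest in thymus (8.12) and its lowest in leukemic spleen (6.07), which was below the 6.45 of CA10 whole marrow. No NHD13 leukemia reached the lowest NHD13 thymus in Hoxc6 (6.45 against 7.70), whereas in Hoxc4 the ranges overlapped.

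CA10 and wild-type arrays both served as the low side when the genes were chosen, so a gene high in CA10 was less likely to be taken up, and CA10 against wild type is not independent of that choice. Hoxc8 was also near the lowest signals in both genotypes. With these limits, none of the 5 member probe sets was called against wild type in any tissue by limma at an adjusted p under 0.05. Hoxc4 differed by −0.20 ± 0.51 in leukemic spleen, −0.18 ± 0.52 in healthy spleen, −0.024 ± 0.39 in lineage-negative marrow, 0.21 ± 0.26 in whole marrow and 0.017 ± 0.39 in thymus. The largest difference of any member probe set in these comparisons was 0.57 ± 0.64, of Hoxc8 in lineage-negative marrow, where the third CA10 array was the high one. The adjusted p-values of the members lay between 0.427 and 1, and at an unadjusted p under 0.05 the count was also 0 in each comparison.

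These counts were set against few calls in general. Against wild type, CA10 leukemic spleen had 7.08% of all probe sets called, and healthy CA10 spleen, lineage-negative marrow, whole marrow and thymus had 0% each. CA10 leukemic against healthy CA10 spleen had 6.26% called and 0 of the 5 members, whose differences lay between −0.14 and 0.13. With wild-type whole marrows 1 to 3 as the only controls, 2 Hoxc probe sets were called in CA10 whole marrow, 1 of them 1427361_at of Hoxc6 at 0.91. In that comparison the array set separates the genotypes entirely. The share of all probe sets called there is not given, so the count does not set Hoxc apart. With only marrows 4 to 6, of the same array set as the CA10 marrows, the difference of 1427361_at was 0.02.

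**Figure D2:**
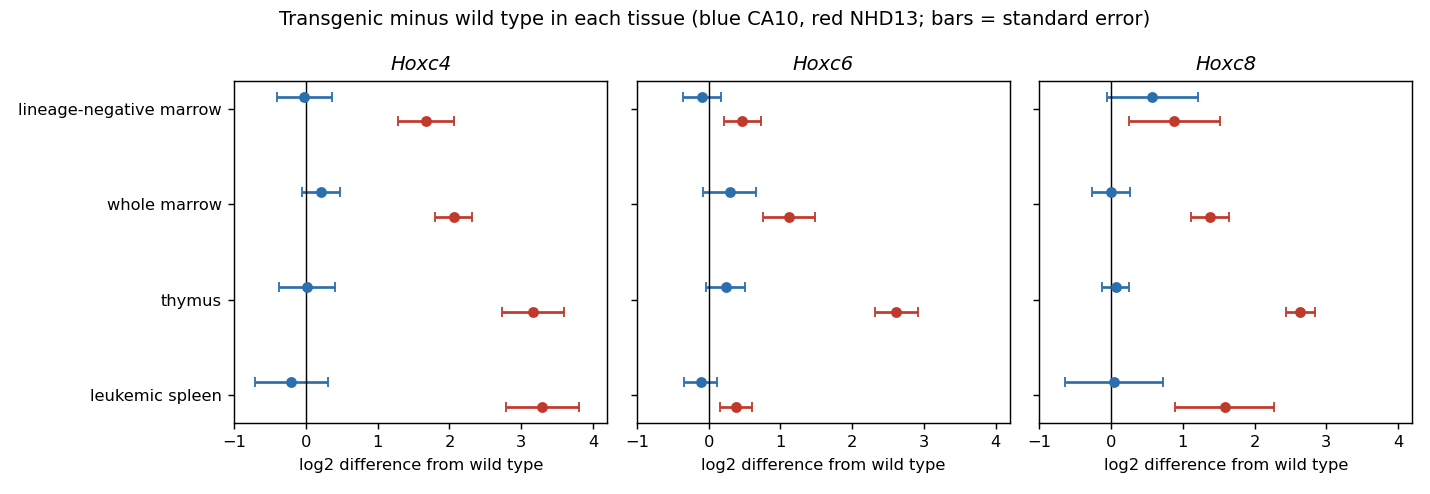
Log2 difference from wild type of Hoxc4, Hoxc6 (main probe set) and Hoxc8 in CA10 (blue) and NHD13 (red) tissue; points are differences of group means and bars the model standard error. CA10 points lie between −0.20 and 0.57, and NHD13 points between 0.38 and 3.29.

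Among wild-type tissues the members differed little. Hoxc6 was lower in thymus than in whole marrow by −0.70 ± 0.24 and −0.66 ± 0.23 for 1427361_at and the main probe set (limma adjusted p = 0.0169 and 0.0172), and these were 2 of 5 member probe sets called where 47.3% of all were. Both calls were lost when the array set was kept apart: with arrays outside the narrow set the differences were −0.26 and −0.21. No member was called between lineage-negative and whole marrow (24% of all probe sets called; 1 of 5 members at an unadjusted p under 0.05) or between spleen and whole marrow (9.26%; 0 of 5).

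C57B6 marrow against the other wild-type marrow gave 0 of 5 members called by limma, with 19.6% of all probe sets called. At an unadjusted p under 0.05 there were 2, both of Hoxc6: the main probe set at −0.91 ± 0.37 and 1427361_at at −0.74 ± 0.32 (adjusted p = 0.0868 and 0.109). Against only wild-type marrows 4 to 6, which are of the narrow set, 5 of 9 Hoxc probe sets were called. The share of all probe sets called under this setting is not given, so that count does not set Hoxc apart. The C57B6 marrows are not of that set, so array set and strain label cannot be told apart there. Hoxc4 and Hoxc8 differed by 0.20 ± 0.26 and 0.057 ± 0.26.

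The neighbours of the members in the cluster were not used to choose them, though they were part of the list in which the earlier result was seen. The p-values given below for these neighbours in NHD13 comparisons are therefore not independent of that earlier look. In chromosomal order the cluster runs from Hoxc13 through Hoxc12, Hoxc11, Hoxc10, Hoxc9, Hoxc8, Hoxc6 and Hoxc5 to Hoxc4. Of the other Hoxc genes, Hoxc5 had 3 single-gene probe sets and Hoxc9, Hoxc10 and Hoxc13 had 1 each. Hoxc11, Hoxc12 and the long non-coding RNA Hotair are not analysed here.

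Hoxc5, which lies between Hoxc4 and Hoxc6, was high in NHD13 tissue by its probe set 1439885_at. In leukemic spleen the 6 NHD13 arrays were at 5.70, 6.52, 7.50, 6.52, 4.99 and 6.22, the 2 wild-type spleens at 3.45 and 3.37, and all CA10 spleens between 3.30 and 3.65. In healthy NHD13 mice it was at 6.30, 6.01 and 8.10 in thymus, 4.97, 5.28 and 6.85 in whole marrow and 5.95, 6.35 and 5.54 in lineage-negative marrow. All wild-type and CA10 arrays of these tissues were at or below 4.31, except wild-type thymus 2, at 5.70.

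The 1439885_at and 1450832_at probe sets exceeded the 40th percentile on 15 and 9 arrays, of which 14 and 8 were NHD13 arrays, so they passed the filter on low signals through NHD13 tissue. Their p-values are a description, in view of the earlier look at these data. They are therefore taken from the fit over all 34842 single-gene probe sets with no filter, while the standard errors are those with the filter. In it, 1439885_at was higher than in wild type by 2.83 ± 0.38 in leukemic spleen (limma adjusted p = 9.91e-05, with 26.8% of all probe sets called), by 2.12 ± 0.29 in whole marrow (adjusted p = 0.00194, with 0.634% called) and by 2.82 ± 0.48 in thymus (adjusted p = 0.0251, with 0.448% called). In lineage-negative marrow the difference was 2.23 ± 0.26 and was not called (adjusted p = 0.0653, with 0% called).

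With the filter, the thymus call was lost without the third NHD13 thymus (2.17, adjusted p = 0.0913), with only the groups compared (adjusted p = 0.0502) and with the replicate number as a block (2.44, adjusted p = 0.538), where the numbers do not pair the thymuses. In lineage-negative marrow the adjusted p was 0.0394 with the filter.

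Against CA10 the same probe set was higher by 2.71 ± 0.27 in leukemic spleen (limma adjusted p = 3.04e-06 with no filter, with 24.6% of all probe sets called), by 2.80 ± 0.28 against healthy CA10 spleen (adjusted p = 3.21e-06, with 31.5% called) and by 1.86 ± 0.34 in whole marrow (adjusted p = 0.0104, with 25.5% called). It differed by 2.86 ± 0.53 in thymus and 2.20 ± 0.26 in lineage-negative marrow, not called at adjusted p = 0.0701 and 0.179 although no array overlapped (0.112% and 0% called).

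The 1450832_at probe set of Hoxc5 was higher in NHD13 leukemic spleen by 1.03 ± 0.30 against wild type (limma adjusted p = 0.0163 with no filter) and by 0.82 ± 0.21 against CA10 leukemic spleen (adjusted p = 0.00923), and in thymus by 1.81 ± 0.32 against wild type (adjusted p = 0.0291). With the filter, leaving out 1 array in turn lost the call against wild type in 7 of 10 cases in thymus and in 2 of 8, namely either wild-type spleen, in leukemic spleen. In whole marrow the difference from wild type was 0.24 ± 0.29 and was not called. 1456301_at, the brightest of the 3, exceeded the 40th percentile on 22 arrays, 14 of them NHD13. It was higher than in CA10 leukemic spleen by 1.01 ± 0.23 (adjusted p = 0.00393 with no filter) and was not called against wild type in any tissue.

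Hoxc9, on the other side of Hoxc8, was not called in any NHD13 comparison. Its mean was 6.43 in NHD13 leukemic, 6.47 in wild-type and 6.38 in CA10 leukemic spleen, and 6.43 in NHD13 against 6.26 in wild-type thymus, with differences of −0.041 ± 0.26, 0.049 ± 0.19 and 0.18 ± 0.17. The third NHD13 leukemia stood alone at 7.45, the next highest of the 6 at 6.39; the same array was the highest of the 6 in Hoxc4, all 3 Hoxc5 probe sets and Hoxc8. Hoxc10 and Hoxc13 each exceeded the 40th percentile on 1 array, so they did not pass the filter and were not tested with it. NHD13 minus wild type lay between −0.27 and 0.26 for Hoxc10 and between −0.31 and 0.31 for Hoxc13.

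**Figure D3:**
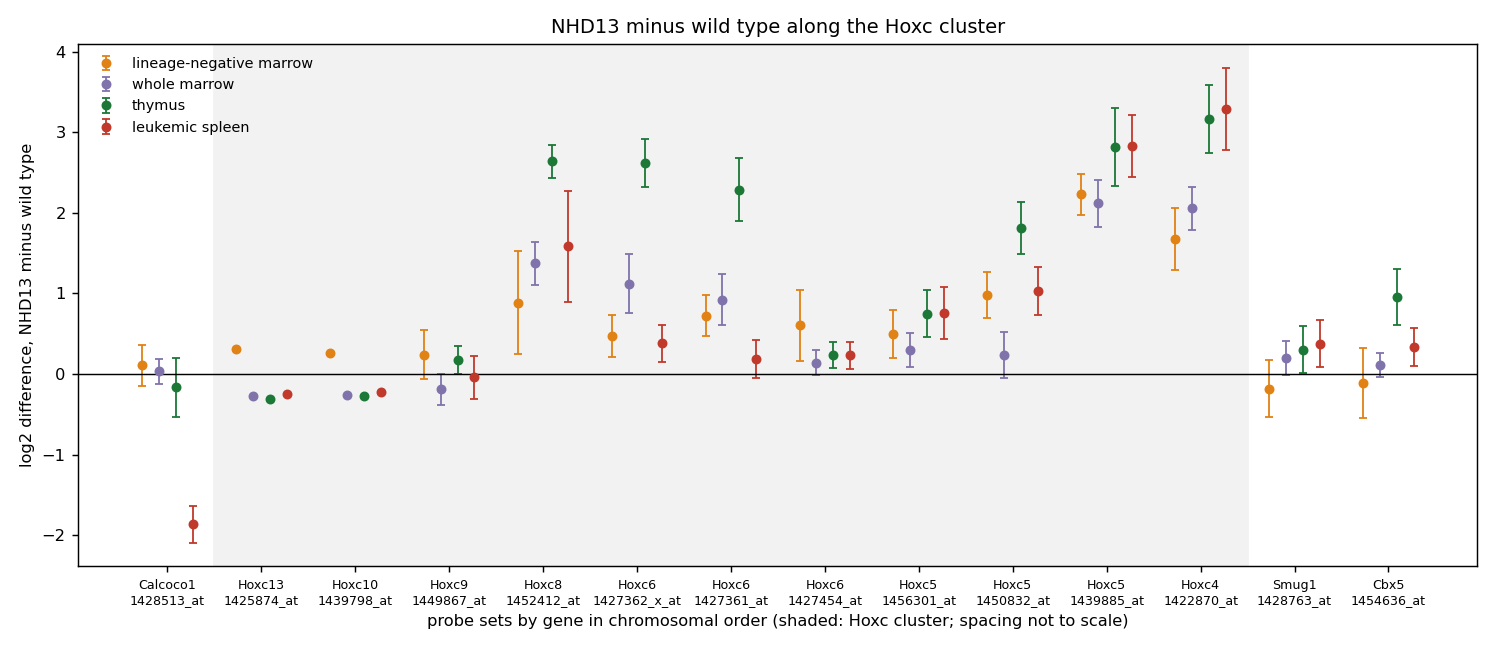
Log2 difference, NHD13 minus wild type, of each Hoxc probe set and of the flanking genes Calcoco1, Smug1 and Cbx5, in chromosomal order. Colours give the tissue and bars the model standard error (none for Hoxc13 and Hoxc10, which did not pass the filter). Points for Hoxc4, Hoxc8, 1439885_at of Hoxc5 and the first pair of Hoxc6 probe sets lie between 0.19 and 3.29. Those of 1427454_at of Hoxc6 lie between 0.14 and 0.60. For Hoxc5, 1450832_at lies between 0.24 and 1.81 and 1456301_at between 0.30 and 0.75. Points for Hoxc9, Hoxc10 and Hoxc13 lie between −0.31 and 0.31, so the ranges overlap.

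Genes that flank the cluster were examined as a list of 10. By limma none was called in NHD13 against wild-type thymus, whole marrow or lineage-negative marrow (5, 1 and 0 at an unadjusted p under 0.05; 0.589%, 0.814% and 0.0214% of all probe sets called), where the median differences of the list were 0.40, 0.11 and −0.16 beside 0.010, 0.052 and −0.012 for all probe sets. In NHD13 leukemic against wild-type spleen, where 31.2% of all probe sets tested were called, 2 were higher and 2 lower: Gpr84, a receptor for medium-chain fatty acids, at 2.38 ± 0.58 (adjusted p = 0.00516) and Hnrnpa1, an RNA-binding protein, at 0.72 ± 0.20 (adjusted p = 0.0134), and Calcoco1, the first coding gene beyond Hoxc13, at −1.86 ± 0.23 (adjusted p = 3.73e-05) and Zfp385a at −0.84 ± 0.18 (adjusted p = 0.00243). Cbx5, a heterochromatin protein beyond Hoxc4, was at 0.33 there and not called.

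Members of the same paralog groups in the other clusters, which encode closely related proteins, were examined as a list. Of 7 such genes, Hoxa4, Hoxb4, Hoxb6 and Hoxd8 were measured. By limma none was called in NHD13 against wild type in any tissue (1 in thymus and 0 elsewhere at an unadjusted p under 0.05), with list medians of 0.27 in leukemic spleen, 0.37 in thymus, 0.088 in whole marrow and 0.27 in lineage-negative marrow. Hoxb4 was called in NHD13 against CA10 leukemic spleen, at 0.54 ± 0.19 (adjusted p = 0.0464), as 1 of the 4 where 27.4% of all probe sets were called.

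Of 9 genes for the PBX and MEIS family of HOX cofactors, 8 were measured. Pbx3, by its brightest probe set, was called higher in NHD13 in every comparison outside lineage-negative marrow (36.1% of all probe sets were called against healthy CA10 spleen, 28.3% against CA10 whole marrow and 0.132% against CA10 thymus), with 4.76 ± 0.45 against wild-type thymus (adjusted p = 0.000172) and 2.82 ± 0.30 against wild-type whole marrow (adjusted p = 7.28e-05). In NHD13 leukemic against wild-type spleen 1 of the 8 was higher, Pbx3, and 1 lower, Meis3 at −0.98 ± 0.19 (limma adjusted p = 0.00101). There 31.2% of all probe sets were called. Against CA10 leukemic spleen 2 were higher and 2 lower, with 27.4% called. Among the lower was Meis1, a cofactor gene often active beside Hoxa9 in leukemia, at −1.97 ± 0.59 (limma adjusted p = 0.0193). Against healthy CA10 spleen 1 was higher and 3 lower. The medians of the list in the NHD13 comparisons with wild type were 0.059 in leukemic spleen, −0.11 in thymus, −0.14 in whole marrow and 0.16 in lineage-negative marrow.

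Chromatin regulators of Hox genes, the Trithorax and Polycomb proteins and their partners, were a list of 22 with 21 measured. In NHD13 leukemic against wild-type spleen 2 were higher and 4 lower, 6 of 21 beside 31.2% of all probe sets. Ezh2, the Polycomb methyltransferase, was higher at 1.11 ± 0.36 (adjusted p = 0.0255), and Kmt2a, the Trithorax methyltransferase MLL, lower at −1.36 ± 0.35 (adjusted p = 0.00719). In healthy NHD13 thymus, whole marrow and lineage-negative marrow against wild type limma called none of the 21 (2, 3 and 1 at an unadjusted p under 0.05).

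The cell mixture of the tissues also differed, and in bulk RNA fewer cells of a type and less RNA per cell cannot be told apart. The mean log2 signal over 7 B cell markers was 4.98 to 6.09 in NHD13 leukemic spleen and 10.69 to 10.99 in wild-type spleen, with 7 of 7 lower, among them Cd79a at −7.45 ± 0.99 (adjusted p = 7.08e-05). All 9 T cell markers were lower as well, with a median difference of −2.87. Of 8 granulocyte genes 3 were higher, led by Ctsg at 5.08 ± 1.30 (adjusted p = 0.00697), and of 8 stem and progenitor genes 3 were higher and 1 lower, again beside 31.2% of all probe sets called. Their part in the Hoxc differences was not tested.

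In healthy NHD13 whole marrow 5 of 7 B cell markers were lower than in wild type (list range 5.61 to 6.46 against 7.21 to 7.99). There 0.814% of all probe sets were called. Mecom, a stem cell factor, Itga2b, a megakaryocyte integrin, and the stromal gene Dcn were higher (1.25 ± 0.23, 1.04 ± 0.23 and 1.23 ± 0.22). Each was the only gene of its list called, of 8, 4 and 8, and the list medians were −0.049, 0.48 and 0.61. In NHD13 thymus the T cell list ranged from 8.70 to 10.06 (median 9.43) against 8.78 to 11.62 (median 11.48) in wild type. Of its 9 genes 1 was called, Cd2, which was lower, with 0.589% of all probe sets called. The thymic epithelium list ranged from 8.48 to 9.76 (median 9.39) against 5.35 to 9.18 (median 9.01). Of its 6 genes 0 were called, and 0 had an unadjusted p under 0.05 by limma. In lineage-negative marrow the granulocyte genes Ctsg and Mpo were lower at −4.13 ± 0.47 and −3.64 ± 0.41 (limma adjusted p = 0.0394 for each). They were 2 of 8 granulocyte genes, with 0.0214% of all probe sets called. Whether these shifts bear on the Hoxc signals was not tested.

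Within the 6 NHD13 leukemias the members did not rank the arrays in the same way. Pearson's r was 0.597 for Hoxc4 and Hoxc6, 0.647 for Hoxc4 and Hoxc8 and 0.307 for Hoxc6 and Hoxc8, with exact two-sided permutation p = 0.226, 0.179 and 0.532, or 0.34, 0.34 and 0.532 adjusted over the 3 pairs. Spearman's rho was −0.0286, 0.371 and 0.371 (exact permutation p = 1, 0.497 and 0.497). With the 2 arrays farthest from the median left out, r was −0.847, −0.539 and 0.223, so the positive values for Hoxc4 rest on those arrays.

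**Figure D4:**
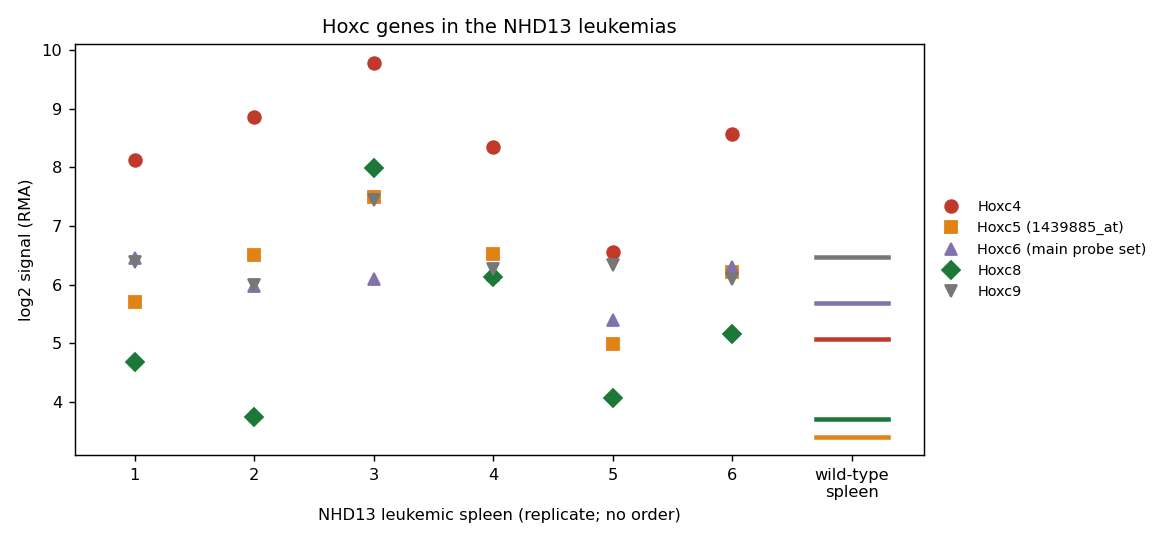
Log2 signal of 5 Hoxc genes in each of the 6 NHD13 leukemic spleens; replicate numbers carry no order, and the bars at the right give the mean of the 2 wild-type spleens for each gene in the same colour. Levels of different genes come from different probe sets and are not comparable with each other. Hoxc4 lies above its wild-type mean of 5.08 in all 6, the third leukemia is highest in Hoxc4, Hoxc5, Hoxc8 and Hoxc9, and the fifth is lowest in Hoxc4, Hoxc5 and Hoxc6.

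The genes whose pattern over the 14 group means was most like that of each member were listed by Pearson's r, as a description, since the groups share the NHD13 arrays on which the members are high. For Hoxc4 they were Pbx3 at 0.958, Liph, a phospholipase, at 0.943, Klhl4 at 0.942, Ascc3, a helicase subunit, at 0.903 and Eya1, a transcriptional coactivator, at 0.895. For Hoxc8 they were Dach2, a nuclear corepressor, at 0.916, Hmga2, an architectural chromatin protein, at 0.914, Pbx3 at 0.902, Liph at 0.887 and Klhl4 at 0.882.

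For the main Hoxc6 probe set they were Eya1 at 0.911, Gria2, a glutamate receptor subunit, at 0.906, Lin9 at 0.886, Skp2, a ubiquitin ligase subunit of the cell cycle, at 0.879 and Cbx5 at 0.865. Over the 57 single arrays these values were lower, from 0.862 for Hoxc4 with Pbx3 to 0.303 for Hoxc6 with Skp2. Among the Hoxc probe sets, Hoxc4 was at 0.967, 0.877 and 0.752 with 1439885_at, 1456301_at and 1450832_at of Hoxc5. It was at 0.906 with Hoxc8, 0.697 with the main Hoxc6 probe set and −0.136 with Hoxc9.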

How the data were processed

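The authors deposited log2 signals made with RMA, per the submitters' processing notes; its version is not given in the sources used here. RMA normalizes arrays together. Per the labels' protocols, Trizol was used to extract RNA and 100 ng entered the biotin labelling. The values ran from 2.58 to 14.65, and the number of arrays limits precision.

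Probe sets were named from the supplied platform annotation: of 44943, 34842 named 1 gene, 931 several, 9106 none and 64 were controls. The 28025 of the single-gene probe sets above the 40th percentile of their array on at least 3 arrays were tested with limma 3.58.1 in R 4.3.3 (lmFit, eBayes), 1 model of group means per tissue or, between tissues, over all 14 groups; p-values were adjusted by Benjamini-Hochberg over all probe sets at a threshold of 0.05. The code was tested on simulated data. In gene lists each gene is its probe set with the highest mean.

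The members, the gene lists and the tests were chosen with earlier results of these data known. Named genes were all Hoxc genes, up to 4 called genes per list and comparison, and the 5 genes most like each member. Alternatives were other filters, 1 value per gene, quantile normalization, other models, array sets, C57B6 controls and each array left out. Same-numbered lineage-negative arrays deviated together (r from 0.187 to 0.762 over all pairs), so numbers may pair the samples there. The third arrays were all of the narrow set, so pairing and array set cannot be told apart. Standard errors and p-values given for lineage-negative marrow come from the model without pairing. In no other comparison was every pair over 0.1 with 3 or more pairs. RefSeq gave the gene order and the promoter.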

Additional observations from a re-analysis of the deposited data

Results flagged for a closer look

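In all, 6 results stood apart from their group, among 66 groups of 4 to 10 arrays examined, of which chance flags about 1 in 20. Wild-type thymus 2 was the highest of the 7 in 1439885_at of Hoxc5, at 5.70 (next 3.82), and in 1427361_at of Hoxc6, at 6.25 (next 5.60). Wild-type thymus 6, of the narrow array set, was the highest in Hoxc10, at 4.33 (next 3.60), and in 1456301_at of Hoxc5, at 5.69 (next 4.97). The third NHD13 leukemia was the highest of 6 in Hoxc9, at 7.45 (next 6.39). CA10 leukemia 3 was the lowest of 6 in 1456301_at of Hoxc5, at 4.43 (next 4.75).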

How the results depend on the processing

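Over the 27 differences of the members between NHD13 and another group, 369 of 378 values under alternatives moved by less than the spread between replicates, 7 moved further and 2 reversed. Hoxc4 stayed between 1.39 and 3.85 in all of them. The reversals were those of Hoxc8 in lineage-negative marrow against CA10 (−0.29 and −0.01). Hoxc6 moved to 1.30, 1.41 and 1.27 in leukemic spleen against wild type, CA10 leukemic and healthy CA10 spleen with the C57B6 marrow difference subtracted, to 2.04 in whole marrow with C57B6 marrows as controls, to 0.65 in lineage-negative marrow against wild type with quantile normalization, and to 1.72 and 1.62 in thymus against wild type and CA10 with the mean over its probe sets, which takes in 1427454_at. The causes of the other moves were not tested.

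The Hoxc5 counts rest on probe sets of which 2 passed the filter through NHD13 arrays, so they are given as values. Counts of called Hoxc5 and Hoxc9 probe sets changed in 56 of 368 cases with those of the members in other comparisons. The share of all probe sets called under the same settings is not given beside the counts in this paragraph. Nor is it given beside those with each array left out. The counts therefore do not set Hoxc genes apart from other genes. With the probe set of highest mean for each gene, which leaves out 1439885_at, 0 were called against wild type in any tissue and in whole marrow against CA10, and 1 against CA10 leukemic and healthy CA10 spleen. With the mean over probe sets 0 were called in lineage-negative and whole marrow and 1 in leukemic spleen and thymus against wild type, and 1 against CA10 leukemic and healthy CA10 spleen. Above the 60th percentile, 1 was called in leukemic spleen against each control and in thymus against wild type. With only the groups compared, 1 was called in leukemic spleen and in thymus and 0 in lineage-negative marrow against wild type. Quantile normalization and no filter each left 0 in lineage-negative marrow against wild type. With no filter, which adds Hoxc10 and Hoxc13, the count was 2 of 6 in whole marrow against CA10. Of the Hoxc5 and Hoxc9 probe sets only 1439885_at was called there (limma adjusted p = 0.0104). The other call was Hoxc10 or Hoxc13, which were both lower in NHD13 (−0.60 and −0.52). A model of all 57 arrays gave 2 in thymus and 1 in lineage-negative marrow against CA10, and 1 for C57B6 marrow. Moderation with a trend gave 1 in lineage-negative marrow against CA10, as did arrays outside the narrow set. Leaving out wild-type thymus 2 and CA10 thymuses 1 and 3 gave 1 in thymus against CA10. These last 2 settings were chosen after seeing the data.

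Array sets changed the remaining comparisons, in counts out of 9 Hoxc probe sets. The share of all probe sets called under the same settings is not given beside them, so they do not set Hoxc apart from other genes. With wild-type marrows 1 to 3, the counts of Hoxc probe sets called were 2 for CA10 whole marrow, 1 for wild-type lineage-negative and 0 for wild-type thymus against marrow. With wild-type marrows 4 to 6 they were 5 for C57B6 marrow and 2 for spleen. With C57B6 controls it was 3 for CA10 whole marrow, and outside the narrow set 0 for thymus. C57B6 controls do not enter NHD13 against CA10 marrow, so that alternative has no value there.

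Leaving out each array in turn, counts ranged from 1 to 3 in leukemic spleen against wild type, 0 to 1 in lineage-negative marrow against wild type and against CA10, 0 to 2 in thymus against wild type, 0 to 1 for C57B6 and 0 to 4 for wild-type thymus against marrow, and Hoxc8 from −0.29 to 0.94 in lineage-negative marrow against CA10.

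With the replicate block the counts in lineage-negative marrow, where numbers may pair the arrays, stayed at 1 against wild type and 0 against CA10. The Hoxc4 differences of 1.67 and 1.70 cannot change under that block, since each lineage-negative group holds the same replicate numbers. Where numbers do not pair samples, the replicate block gave 2 for CA10 whole marrow and 0 for NHD13 thymus against wild type. In CA10 whole marrow 14547 of all 28025 probe sets were called with that block, against 0 without it, so the count does not set Hoxc apart. There the block compares CA10 with wild-type marrows 1 to 3 only, since the other wild-type marrows hold replicate numbers that no other marrow group has. The cause of the change in thymus was not tested.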
